A study of Mus musculus with 24 samples.

Results

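The genes described here are the 3 NR4A nuclear receptor genes, Nr4a1, Nr4a2 and Nr4a3, and 4 genes around the transcription factor CREB, namely Sik1, Crem, Creb1 and Crtc2. They were chosen by name, with earlier results of these data known. Of the 7 names, 6 had a row of their own among the 12224 rows of the deposited table. Crtc2, which encodes a CREB coactivator, was present only in a row joined with Slc39a1 and Jtb and could not be separated from them. RNA was measured in mpkCCD cells, a mouse epithelial line from the cortical collecting duct, in 4 groups of 6 libraries each. Wild-type (WT) cells and Gpr39 knockout (KO) cells each received vehicle or an agonist of GPR39, a zinc-sensing G protein-coupled receptor. All cells were grown for 9 days on permeable inserts without the vasopressin analogue dDAVP and spent 24 h in a simple medium. The agonist groups then had 1 µM cpd1324 with 10 µM ZnCl2 on the basolateral side for 2 h, and the vehicle groups had 0.1% DMSO with 10 µM ZnCl2, so zinc was present in all 4 groups; the labels name DMSO for the vehicle groups only. Neither how many clones the KO cells came from nor which bases of Gpr39 were edited is given in the labels. They do not say that the libraries of a group came from separate cultures, so p-values measure the spread between these libraries, which may be technical. Libraries were numbered by group, so treatment and library order cannot be told apart.

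NR4A receptors are orphan nuclear receptors whose activity is set largely by how much of the protein is made, and their genes are immediate-early genes in many cell types. CREB binds the cAMP response element and activates transcription once kinases such as protein kinase A have phosphorylated it and CRTC coactivators have entered the nucleus. Among its targets are genes that limit the response: SIK1 is a kinase that phosphorylates CRTC proteins and keeps them in the cytoplasm, and an internal promoter of Crem gives the repressor ICER. In collecting duct principal cells the same cAMP pathway acts downstream of the vasopressin receptor.

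Promoter sequences are shown for the 4 of 6 members with a RefSeq entry in the mouse build GRCm38.p6, the 3 NR4A genes and Creb1, so that the core motifs CREB binds can be read in place; Sik1 and Crem had none. Where a member had several entries, the first was used. No relation between these motifs and the size of a change was tested. The capitals mark the 5-base core of the cAMP response element, TGACG, on either strand (CGTCA when the core lies on the other strand). Each line runs 5′ to 3′ from 250 bases before the annotated start, as far as the start or the first annotated exon in the window.
Nr4a1, chr15:101266596-101266845, plus strand: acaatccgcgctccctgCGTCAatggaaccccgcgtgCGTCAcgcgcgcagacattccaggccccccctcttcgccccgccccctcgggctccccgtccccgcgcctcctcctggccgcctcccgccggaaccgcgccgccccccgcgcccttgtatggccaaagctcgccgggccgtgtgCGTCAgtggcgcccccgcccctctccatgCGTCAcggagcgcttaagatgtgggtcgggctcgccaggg
Nr4a2, chr2:57124004-57124253, minus strand: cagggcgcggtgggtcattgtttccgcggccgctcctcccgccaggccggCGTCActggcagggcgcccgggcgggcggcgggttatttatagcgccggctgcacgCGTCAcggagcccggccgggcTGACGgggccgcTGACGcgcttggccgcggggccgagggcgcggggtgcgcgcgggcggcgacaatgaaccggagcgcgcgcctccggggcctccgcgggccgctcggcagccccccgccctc
Nr4a3, chr4:48045055-48045152, plus strand: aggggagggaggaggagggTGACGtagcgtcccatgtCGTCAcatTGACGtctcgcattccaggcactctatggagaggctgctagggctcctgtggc
Creb1, chr1:64532554-64532644, plus strand: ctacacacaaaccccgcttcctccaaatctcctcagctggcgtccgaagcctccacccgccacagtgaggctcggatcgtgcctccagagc

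In the 250 bases before the start, Nr4a1, Nr4a2 and Nr4a3 each held 4 cores and Creb1 held 0. The fourth core of Nr4a3, 147 bases before the start, lies past the stretch printed and after the first base of an annotated exon. In Nr4a3 and Creb1 an annotated exon begins inside the window, right after the stretch printed. Their counts cover the whole window and so are not of bases before the first exon alone. Of the 32851 RefSeq promoters searched over the same length on both strands, 17.8% held at least 1 core and 45 (0.137%) held at least 4. The complete palindrome TGACGTCA, which contains the core on both strands, was in none of the 4 windows and in 1.55% of all promoters. In Nr4a1 all 4 cores lay on the antisense strand, starting 233, 213, 69 and 40 bases before the start. Each was part of the 7 letters TGCGTCA on the sense strand, a string chosen for counting after the sequences were seen. It was present at least once in 1.75% of all promoters and at least 3 times in 1 promoter. That promoter was Nr4a1 itself, from which the string was taken. In Nr4a2 the cores began 200 and 144 bases before the start on the antisense strand and 123 and 111 bases before it on the sense strand, with the TATA box letters TATAAA between the first pair on the antisense strand (12.4% of all promoters held these). In Nr4a3 the cores began 231, 213, 205 and 147 bases before the start. The AP-1 site TGANTCA (6.75% of all promoters), the NR4A monomer site AAAGGTCA (1.34%) and the CArG box (1.47%) had no match in the 4 windows. The windows were rich in G and C, at 74.4% for Nr4a1, 80.0% for Nr4a2, 63.6% for Nr4a3 and 67.6% for Creb1, and the core itself contains a CG pair. A match describes letters only and is not evidence of a binding site.

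**Figure D1:**
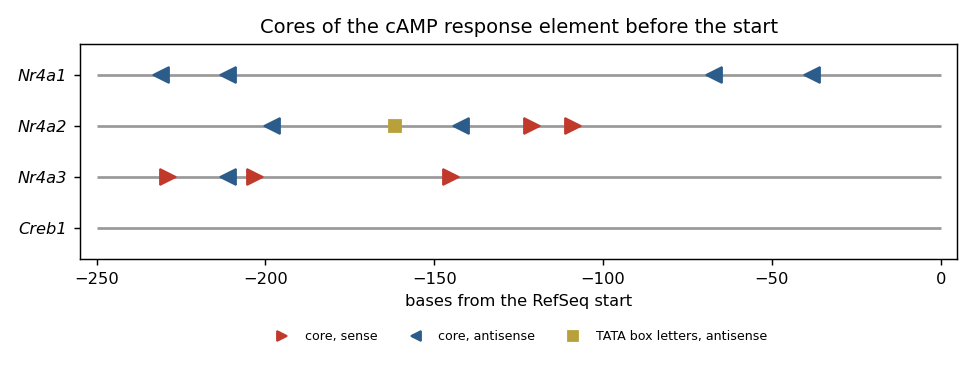
Positions of the 5-base core of the cAMP response element (triangles, sense or antisense) and of the TATA box letters (square) in the 250 bases before the RefSeq start of 4 members. The x axis is the distance from the start in bases. The 3 NR4A genes each have 4 cores and Creb1 has none, and those of Nr4a1 form a distal and a proximal pair. In Nr4a3 and Creb1 an annotated exon begins inside the window.

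Levels are given in scaled units: reads divided by a library factor and by gene length, as deposited, and multiplied by 1 constant so that the mean library total is 1000000. Division by length lets levels of different genes be set side by side, but only approximately. The deposited length of each row was used whichever transcripts of the gene were made. The libraries held 29.8 M to 51.9 M counted reads (M is 1000000), and scaled totals were 1085490 to 1197560 in the WT agonist libraries and at most 989598 in the others. Gpr39 stood at 20.3 to 24.5 scaled units in WT vehicle libraries and at 8.52 to 10.4 in KO vehicle libraries, with no overlap, so part of its signal was still counted in the KO libraries. Of 14 principal cell markers 11 were in the table, while Aqp4, Gata3 and Krt8 had no row of their own. Their sum was 7406 to 9856 scaled units in the WT agonist libraries and 3389 to 4086 in the others, with Krt18 alone rising from a mean of 2236 to 6356, while Avpr2 fell from 105 to 54.5 and Aqp2 from 17.7 to 11.7. Of 9 intercalated cell markers 4 were present, but only 2 of them averaged at least 1 scaled unit. The sum of the 4 was 84.4 to 124 in WT and 38.3 to 49.8 in KO libraries. For the thick limb or the distal tubule, 3 of 7 markers had a sum of 2.82 to 4.78 in WT and 7.40 to 11.8 in KO libraries. Of the proximal tubule, fibroblast, endothelial and immune markers 1 of 6, 1 of 7, 0 of 5 and 2 of 5 were present, the last with a sum of 48.1 to 80.0. The part of these marker levels in the results was not tested. In bulk RNA, more cells making a transcript and more transcript per cell cannot be told apart.

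Nr4a1, on chromosome 15, encodes NUR77 and was the most abundant member in every library. In WT cells its lowest, median and highest levels were 138, 170 and 241 scaled units under vehicle and 1617, 1796 and 2227 under agonist. In KO cells they were 94.4, 118 and 166 under vehicle and 82.8, 110 and 145 under agonist. All 6 WT agonist libraries stood at least 6.70 times above the highest WT vehicle library, whereas the KO groups overlapped. The log2 fold change on agonist was 3.35 ± 0.15 (SE, 6 libraries per group) in WT cells, with an adjusted p of 7.16e-16 in limma, and ranked 30th from the top of 11557 genes tested. In KO cells it was −0.16 ± 0.15 and did not pass the test (95% interval −0.47 to 0.14, limma adjusted p = 0.489). The difference between the genotypes was 3.51 ± 0.21 (limma adjusted p = 8.10e-13).

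Nr4a2, on chromosome 2, encodes NURR1 and was expressed at a small part of the Nr4a1 level. In WT cells its lowest, median and highest levels were 6.85, 7.43 and 9.81 scaled units under vehicle and 20.9, 24.7 and 26.1 under agonist. In KO cells they were 5.85, 7.35 and 8.33 under vehicle and 6.27, 7.90 and 10.6 under agonist. The WT groups did not overlap, and the 2 highest KO agonist libraries exceeded all KO vehicle libraries. The log2 fold change was 1.55 ± 0.11 in WT cells (limma adjusted p = 3.76e-12) and 0.17 ± 0.11 in KO cells, where the test was not passed (95% interval −0.05 to 0.39, limma adjusted p = 0.312). The difference between genotypes was 1.39 ± 0.15 (limma adjusted p = 3.83e-08).

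Nr4a3, on chromosome 4, encodes NOR1 and was the member whose level under vehicle differed most between the genotypes. In WT cells its lowest, median and highest levels were 1.85, 2.89 and 4.12 scaled units under vehicle and 13.1, 21.9 and 23.7 under agonist. In KO cells they were 6.29, 7.79 and 8.20 under vehicle and 5.23, 7.39 and 11.2 under agonist. Every KO vehicle library lay above every WT vehicle library and below every WT agonist library. The WT vehicle libraries held 59 to 129 reads of this gene, the fewest of any member and group. The log2 fold change on agonist was 2.61 ± 0.18 in WT cells (limma adjusted p = 2.67e-12) and 0.03 ± 0.18 in KO cells (95% interval −0.33 to 0.39, limma adjusted p = 0.937), and the difference between genotypes was 2.58 ± 0.25 (limma adjusted p = 4.79e-09). In KO against WT cells under vehicle it was higher by 1.27 ± 0.18 (limma adjusted p = 1.77e-06), the 83rd highest of 11557 genes. The KO agonist libraries were uneven for this gene. Replicates 1 and 3 stood at 11.2 and 10.7 scaled units and the other 4 at 5.23 to 7.42, and without either of those replicates the sign of the KO effect turned (−0.08 and −0.07), as it did without KO vehicle replicate 1 or 2 (−0.01 and −0.02).

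**Figure D2:**
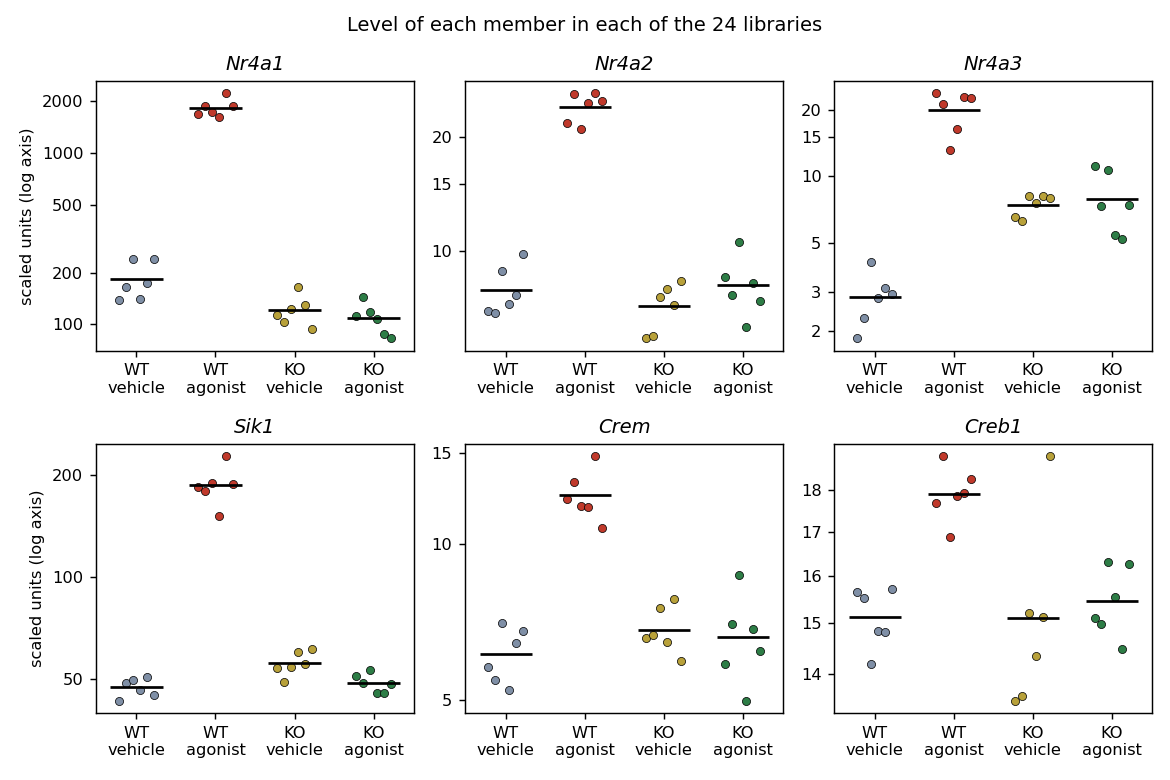
Scaled units of the 6 members in each of the 24 libraries, on a log axis that differs between panels. Each point is a library, with libraries in replicate order within a group, and the line is the mean of the 6. The WT agonist libraries stand above the other 3 groups for 5 members, and for Creb1 replicate 6 of the KO vehicle group reaches the WT agonist range.

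The make-up of the NR4A family differed between the groups. The sum of the 3 genes, in scaled units, was 194 ± 48.1 (SD, n = 6) in WT vehicle and 1879 ± 223 in WT agonist libraries, and 136 ± 25.8 and 125 ± 23.7 in those of KO cells. Nr4a1 supplied 94.4% ± 0.631 of the sum in WT cells under vehicle and 97.7% ± 0.255 under agonist. The share of Nr4a2 was 3.50 to 4.78% under vehicle and 1.15 to 1.48% under agonist in WT cells, with no overlap, although its own level rose. The share of Nr4a3 was 1.16 to 1.87% and 0.748 to 1.37% in the same groups, which overlapped. In KO cells Nr4a3 supplied 4.16 to 7.25% under vehicle, above each WT vehicle library, and 4.58 to 8.46% under agonist. These shares are descriptions with no test of their own.

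**Figure D3:**
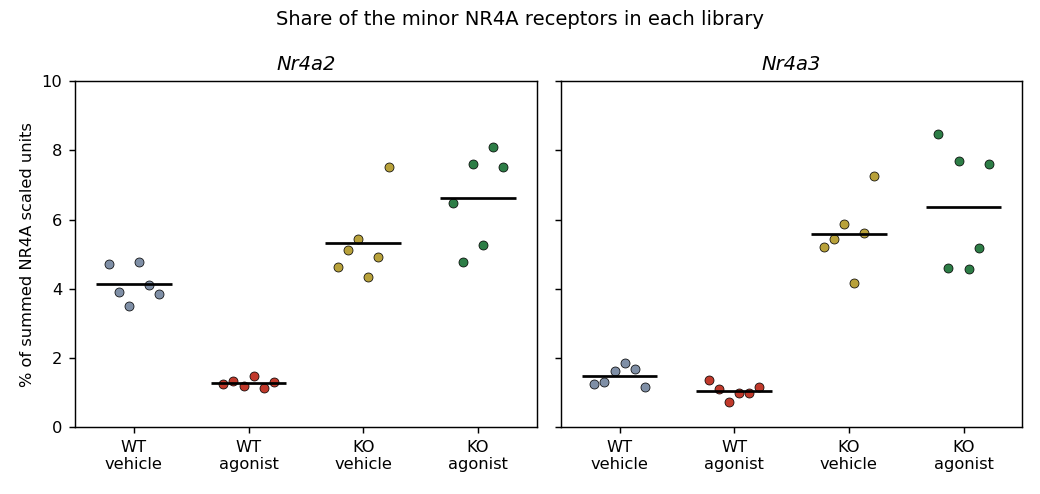
Share of Nr4a2 and Nr4a3 in the summed scaled units of the 3 NR4A genes, in percent, for each library, with the line at the mean of the 6. The Nr4a2 share is lowest in the WT agonist libraries, and the Nr4a3 share of every KO library exceeds that of every WT library.

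Sik1, on chromosome 17, encodes the salt-inducible kinase that acts on CRTC coactivators, and it was the second most abundant member in all libraries. In WT cells its lowest, median and highest levels were 43.0, 47.6 and 50.7 scaled units under vehicle and 152, 186 and 228 under agonist. In KO cells they were 48.9, 54.8 and 61.2 under vehicle and 45.3, 48.4 and 53.3 under agonist. The 6 WT agonist libraries lay at least 2.99 times above the highest WT vehicle library, and 4 of the 6 KO agonist libraries lay below all KO vehicle libraries. The log2 fold change was 1.97 ± 0.07 in WT cells (limma adjusted p = 1.12e-17) and −0.19 ± 0.07 in KO cells. The KO value had an unadjusted p of 0.0127 and an adjusted p of 0.0835 in limma, and passed with quantile normalization (−0.20, limma adjusted p = 0.0438). The difference between genotypes was 2.16 ± 0.10 (limma adjusted p = 6.05e-15). Under vehicle Sik1 was higher in KO than in WT cells by 0.23 ± 0.07 (limma adjusted p = 0.00865), with 5 of 6 KO libraries above all WT libraries.

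Crem encodes both activators and, from its internal promoter, the repressor ICER; the deposited row gives 1 value per gene, so these products could not be separated. In WT cells its lowest, median and highest levels were 5.23, 6.12 and 7.05 scaled units under vehicle and 10.7, 12.0 and 14.8 under agonist. In KO cells they were 5.95, 6.63 and 7.85 under vehicle and 4.98, 6.54 and 8.72 under agonist. The WT groups did not overlap and the KO groups did. The log2 fold change was 0.96 ± 0.10 in WT cells (limma adjusted p = 1.10e-08), a smaller value than for Nr4a1, Nr4a2, Nr4a3 and Sik1. In KO cells it was −0.06 ± 0.10 (95% interval −0.27 to 0.15, limma adjusted p = 0.738), and the difference between genotypes was 1.02 ± 0.14 (limma adjusted p = 2.28e-06).

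Creb1, on chromosome 1, encodes CREB itself, whose activity is controlled mainly by phosphorylation. In WT cells its lowest, median and highest levels were 14.2, 15.2 and 15.7 scaled units under vehicle and 16.9, 17.9 and 18.8 under agonist. In KO cells they were 13.5, 14.7 and 18.8 under vehicle and 14.5, 15.3 and 16.3 under agonist. The WT groups did not overlap, but their means differed by a factor of only 1.18. The log2 fold change was 0.24 ± 0.06 in WT cells (limma adjusted p = 0.00147), and 0.00 (limma adjusted p = 0.986) when all library totals were made equal, here called the same total in every library. Thus Creb1 was called higher on the deposited scaling and not with equal totals. The difference between genotypes, 0.20 ± 0.08, did not pass (95% interval 0.02 to 0.37, limma adjusted p = 0.0640), although it did with quantile normalization (0.25, limma adjusted p = 0.0224), without KO vehicle replicate 1 (0.23, limma adjusted p = 0.0326) and without KO vehicle replicate 2 (0.22, limma adjusted p = 0.0351). In KO cells the agonist effect was 0.04 ± 0.06 (limma adjusted p = 0.693).

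The row that joins Slc39a1, a zinc transporter gene, with Jtb and Crtc2 had means of 107 ± 2.68 (SD, n = 6) and 109 ± 3.93 scaled units in the WT vehicle and agonist libraries, and of 104 ± 4.48 and 102 ± 0.682 in those of KO cells. It gives no value for Crtc2 alone.

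Across the members, 6 of 6 were called higher in WT cells on agonist, where 28.6% of the 11557 genes tested were higher and 28.6% lower, at an adjusted p under 0.05. The groups did not overlap for 6 of 6, against 19.8% of all genes. The median log2 fold change was 1.76 for the members and −0.01 for all genes. In KO cells 0 of 6 members were called in limma, where 9.3% of all genes were called in either direction; 1 of them, Sik1, had an unadjusted p under 0.05, as did 3234 of the 11557 genes. That background moved with single libraries, from 1075 genes to 284 without KO agonist replicate 1 and 1851 without KO agonist replicate 2, and no member was called in either case. The difference between genotypes was called higher for 5 of 6, against 21.5% of all genes. With agonist in both genotypes, 6 of 6 members were lower in KO than in WT cells, against 32.1% of all genes, and without overlap of the groups, against 24.6%. The log2 differences were −4.09 ± 0.15 for Nr4a1, −1.53 ± 0.11 for Nr4a2, −1.31 ± 0.18 for Nr4a3, −1.92 ± 0.07 for Sik1, −0.87 ± 0.10 for Crem and −0.21 ± 0.06 for Creb1. The last was 0.07 (limma adjusted p = 0.299) with the same total in every library. These comparisons share groups of libraries. The members were chosen with earlier results of these data known, so their counts beside those of all genes are not independent evidence.

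**Figure D4:**
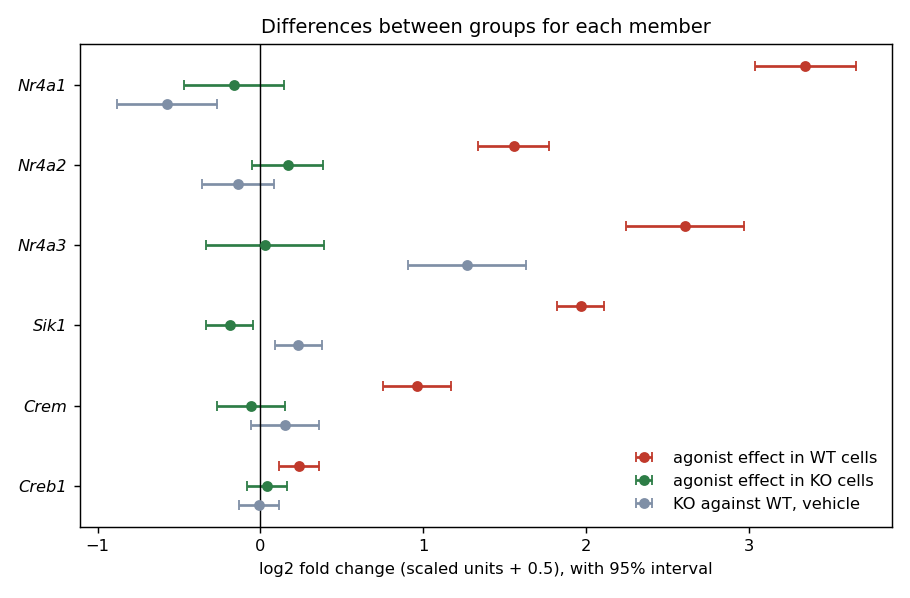
Log2 fold changes of the 6 members with 95% intervals from limma, for agonist against vehicle in WT cells, agonist against vehicle in KO cells, and KO against WT cells under vehicle. In WT cells the values run from 0.24 for Creb1 to 3.35 for Nr4a1, and in KO cells from −0.19 to 0.17.

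Without agonist the members were called between the genotypes about as often as all genes, and in both directions. Of the 6, 2 were higher in KO cells (Nr4a3 and Sik1) and 1 was lower, where 47.8% of all genes were called, 23.9% in each direction. Nr4a3 was the 1 member whose KO and WT vehicle libraries did not overlap, as 13.2% of all genes were higher without overlap. The lower one was Nr4a1, at 122 ± 25.2 scaled units (SD, n = 6) in KO and 184 ± 46.5 in WT cells, a log2 difference of −0.58 ± 0.15 (limma adjusted p = 0.00257) with overlapping groups. Nr4a2 (−0.14 ± 0.11, limma adjusted p = 0.300), Crem (0.15 ± 0.10, limma adjusted p = 0.235) and Creb1 (−0.01 ± 0.06, limma adjusted p = 0.901) did not pass. Thus the median over the members was 0.07, beside 0.00 for all genes.

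In order of level, WT vehicle cells had Nr4a1 above Sik1, Creb1, Nr4a2, Crem and Nr4a3, an order kept in each of the 6 libraries, although the ranges of Nr4a2 and Crem overlapped. Under agonist the order became Nr4a1, Sik1, Nr4a2, Nr4a3, Creb1 and Crem. There Nr4a2 exceeded Nr4a3 in 5 of 6 libraries and Nr4a3 exceeded Creb1 in 4 of 6, with overlapping ranges. In both KO groups Nr4a1, Sik1 and Creb1 kept the first 3 places in all libraries, and the ranges of Nr4a2, Nr4a3 and Crem overlapped. WT agonist replicate 5 was the highest of its group for 4 of 6 members, and KO agonist replicate 3 was among the 2 highest for 6 of 6. KO vehicle replicate 6 was the highest of its group for 3 members and the lowest for 2.

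Over all 24 libraries the genes most like each member were chosen by Pearson's r of log2 values, a description with no test; the points share the wide gap between the WT agonist libraries and the rest. For Nr4a1 these were Mob3a, Krt18 and Pmaip1 (r = 0.997, 0.995 and 0.995), and for Nr4a2 they were Dlc1, Sprr1a and Skil (0.979, 0.978 and 0.978). Nr4a3 was most like Gm20186, the phosphatase gene Dusp8 and Spcs3 (0.952, 0.949 and 0.945). Sik1 was most like Thbs1, Kdm6b and Baz1a (0.993, 0.993 and 0.992), Crem like Desi2, Csnk1a1 and Sgms2 (0.956, 0.952 and 0.952), and Creb1 like Larp4, Rock1 and Lsm12 (0.923, 0.918 and 0.916). Among the members, Nr4a1 and Nr4a2 had the highest r (0.960) and Nr4a3 and Creb1 the lowest (0.633).

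Genes that work with the NR4A receptors, as dimer partners or cofactors, were called about as often as all genes. Of 11 tested, 4 rose and 2 fell in WT cells on agonist (median 0.02), where 28.6% of all genes rose and 28.6% fell, and 0 were called in KO cells (9.3% of all genes). With the same total in every library 1 was higher and 6 lower, beside 12.4% and 60.1% of all genes. The 2 that fell were Rxra, the retinoid X receptor that pairs with NUR77 and NURR1, from a mean of 99.0 to 58.6 scaled units (log2 −0.75 ± 0.05, limma adjusted p = 1.72e-12), and the corepressor Nrip1 (−0.94 ± 0.11). Both differed between genotypes, by −0.71 for Rxra (limma adjusted p = 7.33e-09) and −0.88 for Nrip1. Of the corepressor complex of REST, Rcor1 rose by 0.37 ± 0.05, and by 0.13 with the same total and 0.23 with quantile normalization. Kdm1a was called higher as deposited (0.17 ± 0.04) and stood at −0.07 with the same total in every library (limma adjusted p = 0.153). Under vehicle Ncoa1 was higher in KO cells (0.28, limma adjusted p = 0.00206) and Rxra lower (−0.15, limma adjusted p = 0.0166).

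Of 10 CREB family and coactivator genes, including Crem and Creb1, 5 were higher and 0 lower in WT cells on agonist (median 0.14; 28.6% of all genes in each direction), and 0 were called in KO cells (9.3% of all genes). With the same total in every library, 2 were higher and 4 lower, beside 12.4% and 60.1% of all genes. Creb5, a relative of ATF2 that binds the same element, rose from a mean of 2.79 to 7.10 scaled units in WT cells (1.22 ± 0.10, limma adjusted p = 9.48e-11). Like Nr4a3, it was higher in KO cells under vehicle, at 7.35 scaled units (1.27, limma adjusted p = 1.28e-10), and there the agonist effect of −0.18 was not called. Atf1, a close relative of CREB, was called higher by 0.31 ± 0.05 and the coactivator gene Crebbp by 0.40 ± 0.11, and neither was called with the same total (0.07 and 0.16). Crtc1, which encodes another CRTC coactivator, was not called in WT cells on the deposited scaling (−0.12, limma adjusted p = 0.0543). Its WT value with the same total is not given here. In KO cells it was higher than in WT cells under vehicle (0.26) and under agonist (0.54, and 0.83 with the same total).

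Around SIK1, 5 of 11 genes for SIK kinases, the LKB1 complex that activates them and the class IIa histone deacetylases they phosphorylate were higher and 2 lower in WT cells on agonist, Sik1 included (median 0.09; 28.6% of all genes in each direction), and 0 were called in KO cells (9.3% of all genes). Sik2 rose by 0.53 ± 0.05 (limma adjusted p = 1.25e-09), from a mean of 23.7 to 34.4 scaled units, and by 0.29 with the same total. Of the LKB1 complex, the scaffold gene Cab39 was called higher by 0.28 ± 0.04 (0.04 and not called with the same total), while its relative Cab39l fell by 0.32 ± 0.07 (−0.56 with the same total) and the adaptor gene Stradb fell by 0.62 ± 0.06 on the log2 scale. With the same total, 2 genes of this list were higher and 6 lower, beside 12.4% and 60.1% of all genes. The kinase gene Stk11, which encodes LKB1, and Hdac5 were lower in KO cells under vehicle, by −0.38 and −0.42.

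Of 13 genes for kinases that phosphorylate CREB, 4 were higher and 1 lower in WT cells on agonist (median 0.09), the higher share being close to the 28.6% of all genes called in each direction. With the same total, 1 was higher and 8 lower, again close to the 12.4% and 60.1% of all genes. Rps6ka3, which encodes RSK2, rose by 0.46 ± 0.07 (limma adjusted p = 2.52e-06), and Camk2g fell by 0.28 ± 0.04; with the same total they stood at 0.22 and −0.52. Rps6ka5 (0.25) and Mapkapk2 (0.22) were called as deposited and stood at 0.02 and −0.03, not called, with the same total. In KO cells 1 gene of this list, Camk2g, was called (9.3% of all genes), by 0.12 ± 0.04 at a limma adjusted p of 0.0496. It was not called under 8 of the 12 settings other than leaving out 1 library, where the limma adjusted p was at most 0.0798. Camk1 was lower in KO than in WT cells under both vehicle (−0.53) and agonist (−0.60, and −0.31 with the same total).

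Of 10 genes for phosphatases that act on CREB or CRTC proteins and their regulators, 6 were higher and 1 lower in WT cells on agonist (median 0.21; 28.6% of all genes in each direction), and 0 were called in KO cells (9.3% of all genes). Rcan1, which encodes a feedback inhibitor of calcineurin, rose from a mean of 323 to 798 scaled units (1.34 ± 0.15, limma adjusted p = 2.71e-08). Ppp2ca, a catalytic subunit of protein phosphatase 2A, rose by 0.76 ± 0.05 (limma adjusted p = 5.37e-12). The calcineurin subunit genes Ppp3ca and Ppp3cb were called higher by 0.28 and 0.26 and were not called with the same total (0.04 and 0.03), where 2 genes of the list were higher and 4 lower, beside 12.4% and 60.1% of all genes. Ppp1cc and Ppp3r1 were both higher in KO cells under vehicle, by 0.28.

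Of 21 genes listed here as CREB targets, 16 were higher and 3 lower in WT cells on agonist (median 1.21), where 28.6% of all genes were called in each direction. In KO cells 1 was called (9.3% of all genes). Whether CREB acts on the listed genes in these cells was not tested, and other factors can also act on them. The 3 that fell, named after their values were seen, were the vasopressin receptor gene Avpr2 (−0.94), the water channel gene Aqp2 (−0.54) and the coactivator gene Ppargc1a (−0.99). Like the members and the other lists, this list was put together with earlier results of these data in view. Its direction is therefore not independent evidence. Fosb, an AP-1 subunit gene, rose from a mean of 34.6 to 887 scaled units (4.68 ± 0.13) and the growth factor gene Areg, whose product binds the EGF receptor, from 24.5 to 847 (5.11 ± 0.16). Arc rose by 3.05 ± 0.12 and the phosphatase gene Dusp1 by 3.00 ± 0.12. Fosb and Areg thus changed by more than Nr4a1, the steepest member, and Arc and Dusp1 by less. The KO effects of these 4 genes, from −0.41 to −0.02, were not called. The 1 gene called in KO cells was Ccna2, a cyclin gene (0.63 ± 0.14, limma adjusted p = 0.0142). Under vehicle, Aqp2 was higher in KO than in WT cells (means of 87.3 and 17.7 scaled units, limma adjusted p = 4.62e-11), as was the neurotrophin gene Bdnf (22.5 and 11.1, limma adjusted p = 4.30e-09).

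**Figure D5:**
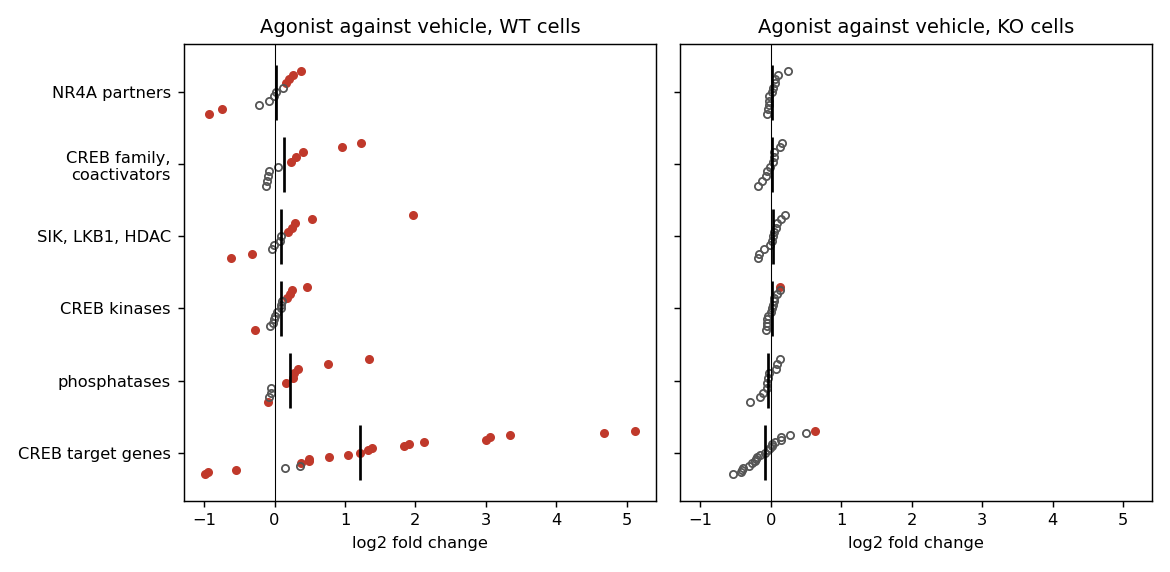
Log2 fold change of agonist against vehicle for each gene of the 6 lists, in WT cells (left) and KO cells (right); filled points were called in limma at an adjusted p under 0.05 and the bar is the list's median. In WT cells the CREB target genes spread from −0.99 to 5.11, and in KO cells only Camk2g and Ccna2 are filled.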

How the data were processed

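Poly(A) RNA was sequenced from 24 libraries, 6 in each of 4 groups, per the labels' protocols. The submitters' processing notes name STAR 2.7.8a, DESeq, DESeq2 and GRCm39, without roles. The deposited table holds a normalized signal per gene, which the values show to be reads divided by a library factor (0.754 to 1.46), rounded, and divided by gene length, with the length beside it; 99.6 to 100% of values per library returned whole reads within 0.05. Strandedness is not given in the sources used here, so reads of antisense genes cannot be told apart.

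The signal was multiplied by 92.1 (scaled units). The 11557 rows averaging 1 scaled unit or more were tested as log2(value + 0.5), so folds of low genes are understated. limma 3.58.1 in R 4.3.3, with a term per group over 24 libraries, trend and robust settings, gave p-values adjusted by Benjamini and Hochberg over all rows; 0.05 was the threshold. Scripts in Python 3.11.15 made the summaries. The fit was also run on simulated data in which few genes were changed and library totals were not made to differ. These data differ in both respects, so that run does not check the scaling.

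The members and the 6 lists were chosen with earlier results of these data known. Named were the members, Gpr39, of each list up to 4 called genes with the smallest adjusted p in WT cells and up to 2 in each other comparison, and the 3 genes most like each member. Joined rows and multi-copy names were kept in the fit. Alternatives were other scalings, filters, pseudocounts, voom on recovered reads, a replicate block and leaving out libraries.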

Additional observations from a re-analysis of the deposited data

Results flagged for a closer look

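For 5 members the agonist effect differed between WT and KO cells by the interaction term of limma. That term was called higher for 21.5% of the 11557 genes tested. The differences, WT minus KO on the log2 scale, were 3.51 for Nr4a1, 1.39 for Nr4a2, 2.58 for Nr4a3, 2.16 for Sik1 and 1.02 for Crem. In WT cells 6 of 6 agonist libraries stood above all vehicle libraries for each of the 5, as for 19.8% of all genes. In KO cells the groups overlapped for each, and the share of all genes that overlapped there is not given here.

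Creb1 in KO vehicle replicate 6 stood at 18.8 scaled units, far above the other 5 libraries of its group (13.5 to 15.2). Of the 24 sets of 6 libraries examined for a library far from the rest, this was the 1 found, and chance gives about 1 in 20. Without that library the agonist effect on Creb1 in KO cells was 0.10 (limma adjusted p = 0.102).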

How the results depend on the processing

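For the 6 members, 780 values were recomputed under other settings, of which 762 kept direction and side of the threshold. Making all library totals equal moved the median over all genes in WT cells from −0.01 to −0.24 and the calls from 3302 higher and 3303 lower to 1433 and 6944; with quantile normalization they were 2694 and 4128. The share of higher calls in the interaction was 52.3% as deposited, 15.0% with equal totals and 39.0% with quantile normalization, that for KO against WT under agonist was 49.9%, 80.8% and 60.2%, and that for the agonist in KO cells 50.1%, 66.9% and 51.3%. Equal totals turned Creb1 in the interaction (−0.0728) and in KO against WT under vehicle (0.0004) or agonist (0.0732), and among list genes Kdm1a (−0.0718), Mapkapk2 (−0.0258) and, in KO against WT cells under agonist, Atf1 (0.0157). Quantile normalization turned Creb1 in KO against WT cells under vehicle (0.0099) and gave 1 called member, Sik1, in KO cells. The interaction was called for 4746 genes as deposited and 7545 with equal totals. The cause of these changes was not tested beyond the scaling itself.

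Leaving out 1 library turned values near 0: Nr4a3 in KO cells ranged from −0.0791 to 0.1256 (−0.0062 and −0.0181 without KO vehicle replicates 1 and 2, −0.0791 and −0.0678 without KO agonist replicates 1 and 3), Crem in KO cells from −0.1369 to 0.0131 (the last without KO agonist replicate 4), and Creb1 in KO against WT cells under vehicle from −0.0739 to 0.0195 (0.0007 without WT vehicle replicate 6, and 0.0195, 0.0175 and 0.0025 without KO vehicle replicates 1, 2 and 4). Genes called in KO cells numbered 1075, from 284 without KO agonist replicate 1 to 1851 without replicate 2, and 2623 without KO vehicle replicate 6 and KO agonist replicate 2 together; no member was called in any of these. The counts without KO agonist replicates 3, 4, 5 and 6 were 589, 429, 481 and 441, and without KO vehicle replicates 3 and 5 they were 663 and 610.

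The correlation of same-numbered libraries' deviations from their group means ran from −0.31 to 0.49. Depending on the 2 groups compared, 0 to 3 of 6 libraries correlated best with the library of their own number. These values do not settle whether replicate numbers pair the libraries. With a replicate block, 6593, 1122, 4732, 5513 and 7404 genes were called in the 5 comparisons, and 6, 0, 5, 3 and 6 members, as without it. An edgeR fit on recovered reads was planned and not run. The voom fit on recovered reads kept all member calls. Depth limits Nr4a3 most, at 59 reads in 1 WT vehicle library.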

Other observations

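The number of TGACG cores before the start was set beside the agonist response of all 8680 genes with a RefSeq promoter entry and a row of their own, taking the entry with the most cores where a gene had several, as a description with no test. Of 5944 genes with no core, 26.4% were called higher in WT cells. The share was 28.7% of all 8680 genes, 31.0% of 1989 genes with 1 core, 41.2% of 582 with 2, 33.6% of 128 with 3 and 62.2% of 37 with 4 or more. Without the 3 NR4A genes, the last was 58.8% of 34. The mean G and C content of the windows was 60.2%, 60.8%, 61.3%, 62.7% and 64.0% for genes with 0, 1, 2, 3 and 4 or more cores, and its part in these shares was not tested. A gene with several entries had more chances of a high count, and the part of entry number was not tested. A rise of at least 2-fold was called for 3.18%, 3.37%, 5.67% and 3.13% of genes with 0 to 3 cores, in that order, for 1 of the 34 other genes with 4 or more (2.94%), and for 3.42% of all.

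The library of KO agonist replicate 3 was the highest of its group for 4 of the 6 members, and replicate 4 the lowest for 3 of 6.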
